A study of Mus musculus with 6 samples.

Results

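The mitochondrial ribosomal proteins are the nuclear-encoded protein subunits of the ribosome inside mitochondria. They were studied here in hematopoietic progenitors of the fetal liver (FL) with and without hnRNP L, an RNA-binding protein that regulates splicing and mRNA stability. The members were all protein-coding genes whose mouse symbol is Mrpl or Mrps followed by a number and at most 1 letter, except 1 gene. This rule, which used no measured value, found 76 of the 38293 genes counted. By known position in the ribosome 26 belong to the small subunit and 49 to the large subunit, including Mrps18a and Mrps30, whose symbols are those of the small subunit. The remaining member, Mrps36, was named as a ribosomal protein but is known as a component of the alpha-ketoglutarate dehydrogenase complex.

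Mitochondria carry ribosomes of their own, which differ from those of the cytosol. Their rRNAs are encoded by mitochondrial DNA (mtDNA), while every protein subunit is encoded in the nucleus, made in the cytosol and imported. These ribosomes translate the few proteins that mtDNA encodes, which are core subunits of the oxidative phosphorylation (OXPHOS) complexes. Inherited defects in several of the subunits cause combined deficiencies of those complexes. In the FL, where most dividing cells are red cell precursors, mitochondria are also the place where heme synthesis starts and ends.

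Poly(A) RNA of Lin-cKit+ cells was sequenced at embryonic day 14.5 in strain C57BL/6, with 1 library per embryo. The 3 embryos with hnRNP L were compared to 3 that were hnRNP L fl/fl and carried VavCre, called hnRNP L deficient below. The Vav promoter drives Cre in blood-forming cells, so that the deletion is not made in the hepatocytes around them. The legends of the study call the controls L fl/fl without Cre, the labels call them wild-type, and the labels give the tissue once as fetal liver cells and once as whole embryo. The 6 libraries held 55952160 to 76157226 reads on genes. Hnrnpl itself was at 552, 531 and 528 CPM in wt, where CPM is the read count relative to the size of the library. Without hnRNP L it was at 242, 288 and 270 CPM, a log2 fold change of -1.01 ± 0.09 (SE; edgeR adjusted p = 0.0072). The groups did not overlap, so the direction in every library matched its label. Hnrnpl RNA was lowered to 0.50 of its wt level and was not absent. The paper names it as possible that incompletely deleted cells with residual hnRNP L remained. The words without hnRNP L stand for the hnRNP L deficient group.

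The libraries differed in markers of other cells. Summed over 8 granulocyte and monocyte markers, wt reached 584, 8562 and 1495 CPM and the deficient libraries 243, 856 and 849 CPM, so that wt replicate 2 stood apart. All 8 had negative log2 fold changes (median -2.56), 2 lay lower without overlap, 1 was called lower and 0 were called higher. The 8 stem and progenitor markers, among them Kit and Cd34, summed to 1121 to 1542 CPM in wt and 889 to 1006 CPM in deficient libraries, 5 of them were called lower and none was called higher. The 6 hepatocyte markers summed to 108 to 235 CPM in wt and 20.5 to 70.8 CPM in deficient libraries. Each of the 6 was lower there without overlap, and 1 was called lower. Of all tested genes 22.7% lay lower and 22.7% higher without overlap, and 9.85% were called lower and 9.32% higher. The sums of the 9 erythroid markers overlapped between the groups, with 2846 to 3534 CPM in wt and 2844 to 3548 CPM in deficient libraries. Of the single erythroid markers 1 was called lower and 0 higher, while 1 lay higher and 1 lower without overlap. The 6 macrophage markers summed to 9.65 to 32.5 CPM in wt and 3.65 to 6.89 CPM in deficient libraries, 5 of them lower without overlap and 1 called lower. The 5 endothelial markers summed to 14.1 to 29.0 CPM and 9.24 to 9.70 CPM, with 1 called lower. The 6 lymphoid markers summed to 1.33 to 7.02 CPM and 0.09 to 0.70 CPM, with Il7r and Rag1 called lower and Dntt at 0 in every library. Sums of megakaryocyte (50.4 to 84.8 and 49.7 to 73.7 CPM) and mast cell markers (20.7 to 88.9 and 12.5 to 44.5 CPM) overlapped, and edgeR called none of these markers. In bulk RNA fewer cells of a type and less RNA per cell cannot be told apart, and the part of these differences in the results for the ribosomal proteins was not tested.

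**Figure D1:**
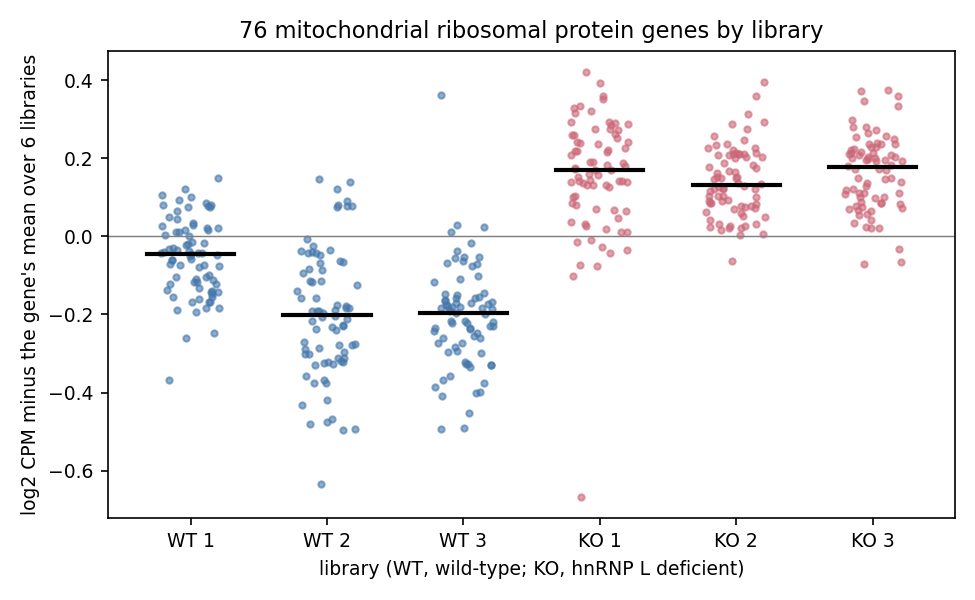
Each point is 1 of 76 genes, plotted as its log2 CPM minus its mean over 6 libraries (vertical axis) in each library (horizontal axis); black lines are medians. The 3 hnRNP L deficient libraries have medians of 0.13 to 0.18, above the wt medians of -0.20 to -0.05.

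In hnRNP L deficient progenitors 43 of the 76 genes rose, each by less than 2-fold, and none fell. All 76 passed the filter on low counts. The calls were made at an adjusted p under 0.05 in the edgeR quasi-likelihood test over 14396 genes, and at an unadjusted p under 0.05 there were 56 higher and 1 lower. Among all tested genes 9.32% were called higher and 9.85% lower, and 17.6% and 20.1% were so at the unadjusted p. DESeq2 called 51 members higher and 0 lower, beside 14.3% and 15.5% of all genes. The log2 fold change was positive for 71 members and negative for 5, with a median of 0.32 against -0.03 over all tested genes and a range of -0.16 to 0.71. No member was called past 2-fold, by edgeR or by DESeq2, beside 224 genes called higher and 743 called lower past 2-fold in the whole table.

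How many members pass the test depended on which library was left out. With wt replicate 3 or any 1 of the hnRNP L deficient libraries left out, edgeR called 0 members higher, and at most 15 genes higher in the whole table, while the smallest adjusted p of a member lay between 0.052 and 0.087. In those fits 48 to 50 members were still higher at an unadjusted p under 0.05, beside 11.8% to 15.5% of all genes, and the median log2 fold change lay between 0.29 and 0.36. DESeq2 on the same 5 libraries called 35 to 48 members higher, among 7.57% to 13% of all genes. Without wt replicate 2, whose granulocyte markers were high, edgeR called 45 members higher, beside 11.4% of all genes, and 53 without wt replicate 1, beside 15.7%. With libraries scaled by total counts in place of TMM, 36 members were called higher and 1, Mrps14, lower, beside 7.4% and 12.2% of all genes, and 66 log2 fold changes were positive. Within the 1 pair of embryos from both groups whose numbers share their first part, replicate 1 of each, 64 log2 fold changes were positive with a median of 0.25. An edgeR fit with that part as a block, chosen after seeing the data and with 1 residual degree of freedom, takes the difference from this pair alone. It called 46 members higher and 1, Mrps14, lower, beside 18.4% and 18.7% of all genes. Wt replicates 2 and 3 are each a block of their own there. The spread between replicates in this fit thus comes from deficient replicates 2 and 3 alone, and its calls take no account of the spread between wt embryos.

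The summed level of the 76 genes was 5447, 4862 and 4858 CPM in wt and 6456, 6300 and 6436 CPM without hnRNP L. All deficient libraries lay above all wt libraries. As a share of the reads on genes the members took 0.541%, 0.507% and 0.505% in wt and 0.622%, 0.619% and 0.631% without hnRNP L. Among the wt libraries replicate 1 lay nearest to the deficient ones. For 58 members every deficient library was above every wt library, beside 22.7% of all tested genes, and for Mrps14 every deficient library was below, beside 22.7% of all tested genes in that direction.

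Members of both subunits rose. In the small subunit 15 of 26 genes were called higher with a median log2 fold change of 0.35, and in the large subunit 28 of 49 with a median of 0.32. Mrps36 was at 25.7, 21.3 and 23.9 CPM in wt and 25.3, 24.7 and 24.5 CPM in deficient libraries, with a log2 fold change of 0.07 ± 0.10 (SE) that did not pass the test. Of the members with a known bacterial homolog 27 of 46 were called higher (median 0.35), and of those found only in mitochondrial ribosomes 16 of 29 (median 0.27). The genes lie on 17 chromosomes, 15 of which hold at least 1 member called higher.

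**Figure D2:**
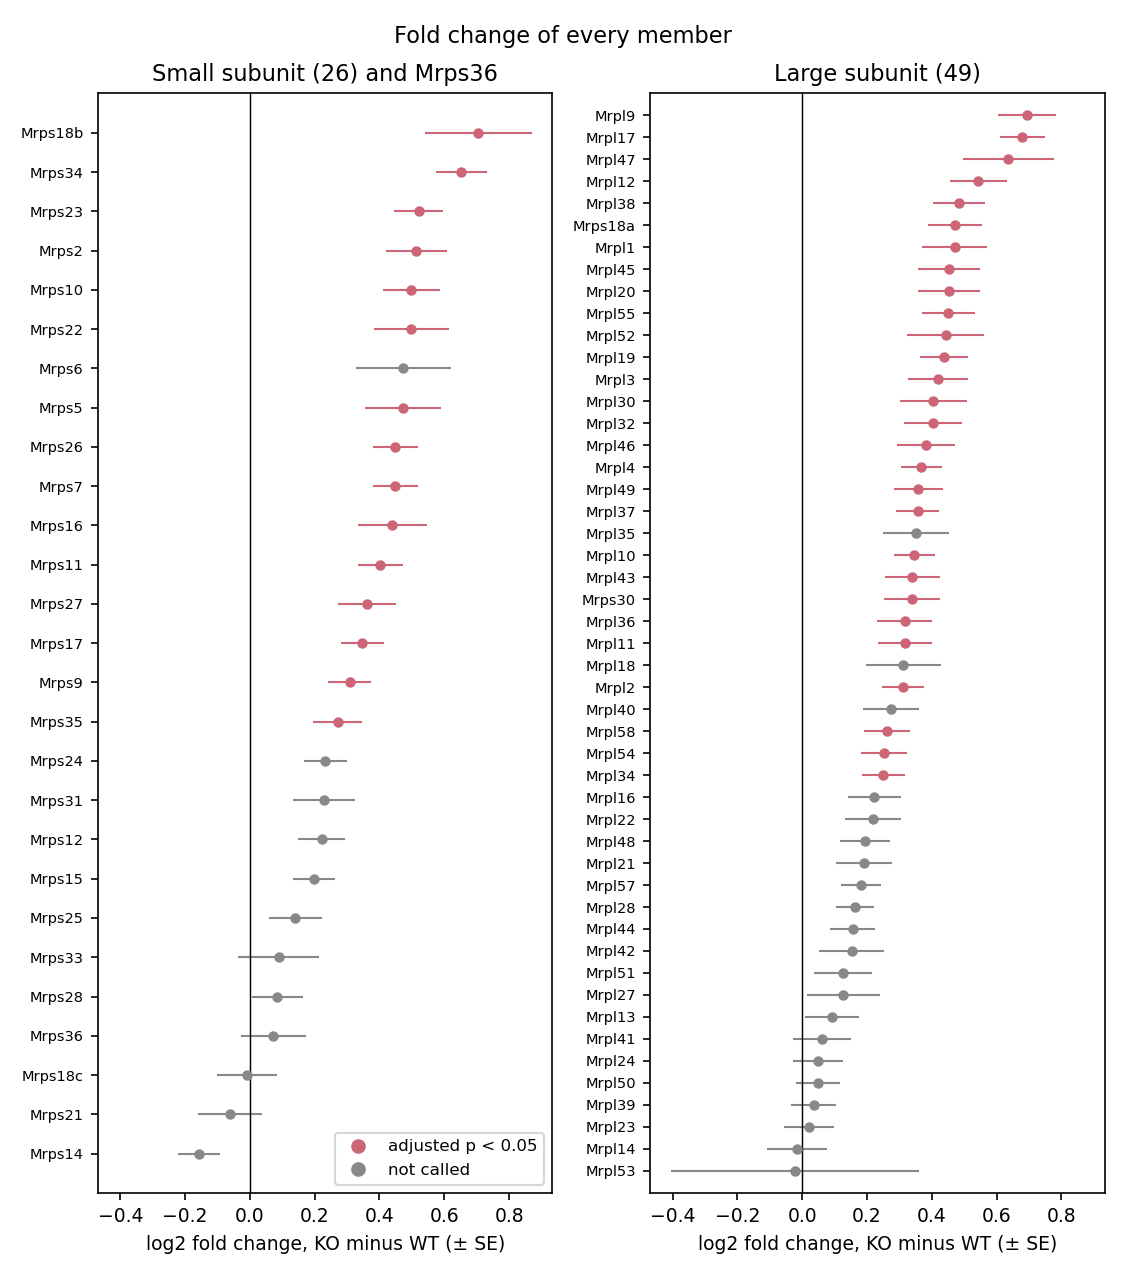
Log2 fold change of hnRNP L deficient (KO) minus wild-type (WT) with its standard error (horizontal axis) for each gene (vertical axis), in red where the edgeR adjusted p was under 0.05; small subunit and Mrps36 on the left, large subunit on the right. The values run from -0.16 for Mrps14 to 0.71 for Mrps18b, and all 43 red points lie above 0.

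The promoters of the genes at both ends of this order are shown, so that their sequence can be read beside their values. They are those of the 3 members with the largest rise and of the 2 lowest members among those with a promoter in the RefSeq table (GRCm38.p6), from 250 bases before to 50 bases after the first listed start site, 5′ to 3′ on the strand of the gene. Capitals mark the letters of 5 motifs found on either strand: GCGCATGC (bound by NRF1, a regulator of nuclear genes for mitochondria), CCGGAAGT (ETS factors such as GABPA), AAGATGGC (YY1), CACGTG (E-box) and CCAAT (NF-Y). Mrps18b lies at chr17:35916391-35916690, Mrpl9 at chr3:94443086-94443385, Mrpl17 at chr7:105811038-105811337, Mrps21 at chr3:95871465-95871764 and Mrps14 at chr1:160194965-160195264. The genes Mrps18b, Mrpl17 and Mrps21 are on the minus strand.
Mrps18b: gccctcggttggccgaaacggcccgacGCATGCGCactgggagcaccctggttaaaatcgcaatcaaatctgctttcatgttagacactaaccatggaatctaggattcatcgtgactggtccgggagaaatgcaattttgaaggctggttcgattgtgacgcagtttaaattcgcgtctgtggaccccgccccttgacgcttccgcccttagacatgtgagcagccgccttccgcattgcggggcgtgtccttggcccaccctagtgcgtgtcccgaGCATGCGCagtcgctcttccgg
Mrpl9: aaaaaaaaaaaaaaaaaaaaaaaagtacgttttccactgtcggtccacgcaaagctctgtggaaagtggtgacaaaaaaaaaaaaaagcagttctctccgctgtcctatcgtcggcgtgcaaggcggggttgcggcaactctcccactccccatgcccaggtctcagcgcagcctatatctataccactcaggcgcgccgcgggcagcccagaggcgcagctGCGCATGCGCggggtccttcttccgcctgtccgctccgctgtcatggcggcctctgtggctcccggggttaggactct
Mrpl17: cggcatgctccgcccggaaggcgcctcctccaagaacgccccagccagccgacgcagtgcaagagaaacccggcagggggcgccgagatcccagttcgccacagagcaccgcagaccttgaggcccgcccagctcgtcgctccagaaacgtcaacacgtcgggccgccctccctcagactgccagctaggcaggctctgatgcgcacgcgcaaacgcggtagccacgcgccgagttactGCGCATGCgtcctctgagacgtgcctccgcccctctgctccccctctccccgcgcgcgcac
Mrps21: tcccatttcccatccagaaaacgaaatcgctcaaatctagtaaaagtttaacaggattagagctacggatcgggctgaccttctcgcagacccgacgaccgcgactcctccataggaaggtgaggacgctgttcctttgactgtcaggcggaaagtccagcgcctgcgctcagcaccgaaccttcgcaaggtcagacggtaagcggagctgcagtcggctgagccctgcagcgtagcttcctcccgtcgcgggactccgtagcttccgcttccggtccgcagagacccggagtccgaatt
Mrps14: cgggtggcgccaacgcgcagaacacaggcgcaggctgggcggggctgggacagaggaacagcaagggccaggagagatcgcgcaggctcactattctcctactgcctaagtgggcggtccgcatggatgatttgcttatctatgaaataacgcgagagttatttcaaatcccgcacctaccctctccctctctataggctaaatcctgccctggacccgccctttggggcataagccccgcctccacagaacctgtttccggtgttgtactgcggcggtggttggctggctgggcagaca
The letters of the NRF1 motif were found in all 3 of the promoters with the largest rise, and none of the 5 motifs in the other 2 shown. This did not extend down the order. The members with the next largest rises and a listed promoter, Mrpl47, Mrpl12, Mrps23 and Mrps2, also held none of the 5 motifs. In Mrpl9 the match on one strand overlaps that on the other.

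A promoter was listed for 68 members. GCGCATGC occurred in 7 of them (10.3%), beside 5.5% of the promoters of tested genes and 2.8% of all 27025 promoters. The other 4 members with it were Mrpl10, Mrpl22, Mrpl32 and Mrpl39, of which Mrpl10 and Mrpl32 were called higher, with log2 fold changes of 0.35 and 0.40, while Mrpl22 (0.22) and Mrpl39 (0.04) did not pass the test. AAGATGGC occurred in 12 members (17.6%, beside 4.8% of tested genes and 2.88% of all promoters), CCGGAAGT in 10 (14.7%, beside 8.47% and 4.0%), CACGTG in 5 (7.35%, beside 10.2% and 7.24%) and CCAAT in 26 (38.2%, beside 39.1% and 37.9%). Between the 37 members with a promoter called higher and the 31 others, AAGATGGC was in 21.6% and 12.9%, GCGCATGC in 13.5% and 6.45%, CCGGAAGT in 16.2% and 12.9%, CACGTG in 10.8% and 3.23%, and CCAAT in 37.8% and 38.7%. A match is only a description of the letters, and its part in the rise was not tested.

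Mrps18b, a protein of the small subunit and 1 of 3 paralogs derived from bacterial S18, had the largest rise. It was at 65.6, 41.4 and 45.7 CPM in wt and at 84.5, 82.5 and 81.9 CPM in deficient libraries, a log2 fold change of 0.71 ± 0.17 (SE; edgeR adjusted p = 0.031). Wt replicate 1 was the nearest to the deficient libraries, and the groups did not overlap. Its paralog in the large subunit, Mrps18a, rose from 55.0, 46.8 and 46.5 CPM to 68.6, 68.4 and 68.6 CPM (0.47 ± 0.08, edgeR adjusted p = 0.018). Mrps18c, their paralog in the small subunit, was at 49.4, 48.7 and 41.3 CPM in wt and 43.9, 47.3 and 47.4 CPM in deficient libraries, with a log2 fold change of -0.01 ± 0.09 (adjusted p = 0.95). The 3 paralogs lay far apart in the order of the members, and the differences between them were not tested.

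In the large subunit Mrpl9, the homolog of bacterial L9, was at 122, 99.2 and 109 CPM in wt and 179, 174 and 181 CPM in deficient libraries (0.69 ± 0.09, edgeR adjusted p = 0.012). Mrpl17, the homolog of L17, which lines the exit of the nascent chain tunnel, was at 71.0, 66.4 and 64.5 CPM in wt and 109, 104 and 110 CPM in deficient libraries (0.68 ± 0.07, edgeR adjusted p = 0.0099), the smallest p among the members. For both genes every deficient library lay above the wt range. Mrpl47, the homolog of L29, rose from 62.6, 44.4 and 44.5 CPM to 78.8, 76.4 and 80.3 CPM (0.64 ± 0.14, edgeR adjusted p = 0.027). As for Mrps18b, wt replicate 1 was the highest of the wt libraries.

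Mrpl12, which forms the factor-binding stalk of the large subunit and also binds the mitochondrial RNA polymerase, had the highest level of all members. It was at 235, 203 and 198 CPM in wt and at 321, 296 and 310 CPM in deficient libraries (0.54 ± 0.09, edgeR adjusted p = 0.015), without overlap. Its stalk partner Mrpl10 was at 77.9, 75.2 and 77.9 CPM and at 96.0, 95.4 and 102 CPM (0.35 ± 0.06, edgeR adjusted p = 0.019). Other members of the large subunit called higher were Mrpl45, which holds the ribosome at the inner membrane (0.45 ± 0.10), Mrpl3 near the peptidyl transferase centre (0.42 ± 0.09) and Mrpl58, known as Ict1, which frees peptides from stalled ribosomes (0.26 ± 0.07). The edgeR adjusted p values of these 3 were 0.024, 0.027 and 0.046.

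In the small subunit Mrps34, a protein found only in mitochondrial ribosomes, was at 58.8, 56.0 and 52.6 CPM in wt and at 93.6, 83.6 and 86.0 CPM in deficient libraries (0.65 ± 0.08, edgeR adjusted p = 0.010). Its exons overlap those of Nme3 on the same strand and of Mapk8ip3 on the opposite strand, and reads on shared bases may be assigned to no gene. Nme3 was at 0.72 to 1.30 CPM in all 6 libraries and did not pass the test. Mrps23 rose from 84.9, 75.4 and 74.5 CPM to 115, 110 and 112 CPM (0.52 ± 0.07, edgeR adjusted p = 0.014). Mrps2, the homolog of bacterial S2, was at 101, 81.2 and 90.5 CPM in wt and 136, 125 and 129 CPM in deficient libraries (0.51 ± 0.09, edgeR adjusted p = 0.019). Neither gene overlapped between the groups.

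Near the mRNA path Mrps7, the homolog of S7 and an early binder of the small rRNA, was called higher (0.45 ± 0.07, edgeR adjusted p = 0.015). Mrps12, the homolog of S12 in the decoding centre, was at 49.2, 45.2 and 49.6 CPM in wt and 58.3, 55.0 and 54.7 CPM in deficient libraries. These groups did not overlap, but its log2 fold change of 0.22 ± 0.07 did not pass the test (edgeR adjusted p = 0.072). Mrps24 lay just outside the threshold in the same way, at 0.23 ± 0.07 (edgeR adjusted p = 0.0502), and Mrps35 just inside it, at 0.27 ± 0.08 (edgeR adjusted p = 0.0496).

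**Figure D3:**
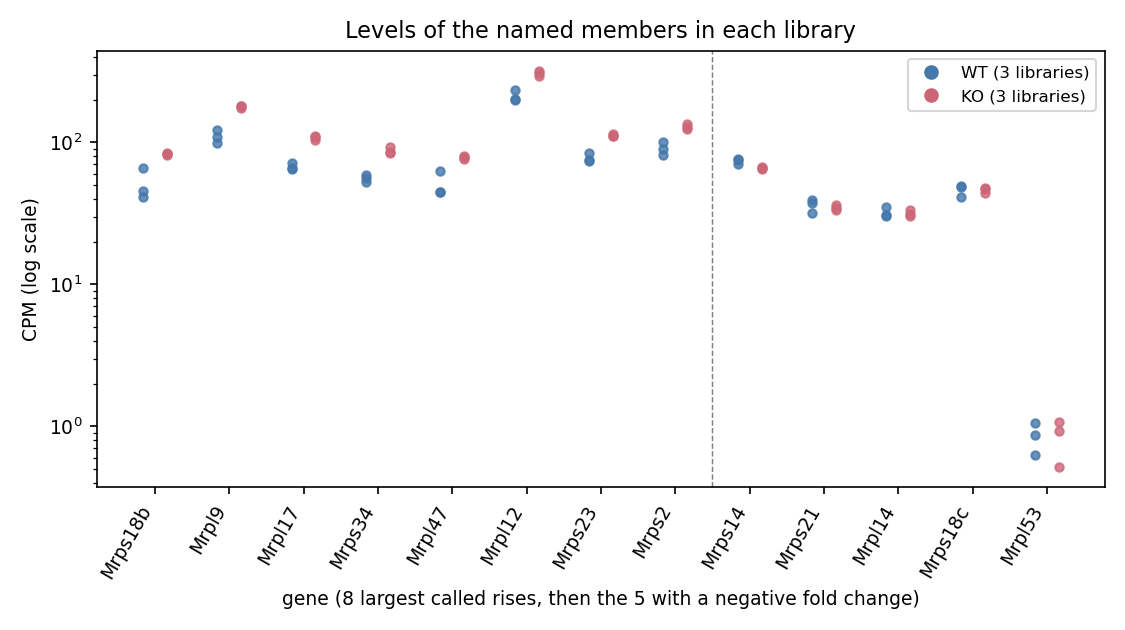
CPM on a log scale (vertical axis) of the 8 members with the largest rise, left of the dashed line, and of the 5 with a negative fold change, in 3 WT (blue) and 3 hnRNP L deficient (KO, red) libraries. The red points lie above all blue points for each of the 8, and below all of them for Mrps14.

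Mrps14, the homolog of bacterial S14, had the lowest fold change of the members. It was at 74.7, 75.8 and 70.1 CPM in wt and at 64.9, 66.6 and 66.3 CPM in deficient libraries, without overlap. Its log2 fold change of -0.16 ± 0.06 did not pass the test (edgeR adjusted p = 0.12). It was negative in all 14 fits made for each member, and Mrps14 was called lower with total counts in place of TMM, by DESeq2 without wt replicate 3 and in the fit with the block. Mrps21 was at 39.3, 37.4 and 32.1 CPM in wt and 33.7, 36.0 and 34.7 CPM in deficient libraries (-0.06 ± 0.10, edgeR adjusted p = 0.68). Mrpl14, the homolog of L14 at the subunit interface, was at 30.9, 35.1 and 30.4 CPM and at 31.3, 33.5 and 30.5 CPM (-0.02 ± 0.09, edgeR adjusted p = 0.92). Both overlapped between the groups.

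Mrpl53 had the lowest counts of all members, 33 to 76 reads per library. It was at 0.63, 0.87 and 1.05 CPM in wt and at 0.51, 1.07 and 0.92 CPM in deficient libraries (-0.02 ± 0.38, edgeR adjusted p = 0.97). Of its 790 exonic bases (chromosome 6, 83109040 to 83109939 on the plus strand of GRCm38) 695 are shared with exons of Gm42688 on the same strand, and HTSeq by default assigns reads on such bases to no gene. In the exon bin counts, where both genes form 1 unit, the counts of its bins summed to 4161 to 6372 per library. A read across several bins is counted in each, so this sum can exceed the number of reads. The gene counts of Mrpl53 were therefore not read as its level.

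Levels between members were compared per length, as RPKM. These are CPM divided by the length in kilobases of all annotated exons of the gene, each base counted once. The highest were Mrpl12 at 138, Mrpl34 at 106 and Mrpl18 at 104 RPKM on average in wt, and the lowest were Mrpl53, with the limit above, at 1.07, Mrpl48 at 4.59 and Mrps10 at 5.76 RPKM. Of these Mrpl34 (log2 fold change 0.25 ± 0.07, edgeR adjusted p = 0.041) and Mrps10 (0.50 ± 0.09, edgeR adjusted p = 0.017) were called higher as was Mrpl12. Mrpl18 was at 171, 142 and 125 CPM in wt and 179, 180 and 185 CPM in deficient libraries, and Mrpl48 at 38.6, 38.7 and 34.9 CPM and 43.8, 42.1 and 42.4 CPM. Neither passed the test, with adjusted p of 0.098 and 0.11 by edgeR, although the groups did not overlap. The low RPKM of Mrpl48 and Mrps10 rest in part on long annotations, of 8152 and 8079 exonic bases. In CPM they averaged 37.4 and 46.5 in wt, beside a median of 63.6 over the members. How many of these bases are transcribed in these cells was not tested.

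By level, 9 of the 25 members with the lowest mean CPM were called higher (median log2 fold change 0.22), 15 of the next 25 (0.31) and 19 of the 26 highest (0.41). Over all tested genes in the same ranges of CPM 7.58%, 15.6% and 16.1% were called higher, with medians of -0.11, 0.05 and 0.09. Exons of 30 members overlap those of another counted gene, and 17 of these were called higher, compared to 26 of the 46 without such an overlap. Mrps24, Mrps6, Mrpl48, Mrpl53 and Mrps34 form 1 unit each with a neighbour in the exon bin counts.

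Other genes of mitochondrial protein synthesis were called in both directions, mostly higher. Over the lists that follow, including the mtDNA-encoded genes and the families given for comparison, edgeR called 30 genes higher and 5 lower. DESeq2 called 58 and 8. Of all tested genes edgeR called 9.32% higher and 9.85% lower, and DESeq2 14.3% and 15.5%. Without wt replicate 3 or any 1 deficient library edgeR called 0 of the listed genes in either direction. Without wt replicate 1 it called 60 higher and 8 lower, beside 15.7% and 16.8% of all genes. Of 5 ribosomal subunits with other symbols Gadd45gip1 was called higher, at 91.0, 86.0 and 100.3 CPM in wt and 133, 130 and 128 CPM in deficient libraries (0.50 ± 0.08, edgeR adjusted p = 0.015), while Dap3 (0.03 ± 0.07), the GTP-binding protein of the small subunit, did not pass, and DESeq2 called 3 of the 5 higher. Of 26 factors of ribosome assembly and rRNA modification 7 were called higher and 1 lower (median 0.24). The rRNA methyltransferase Mrm3 (0.69 ± 0.11), the pseudouridine synthase Rpusd3 (0.64 ± 0.14) and the assembly factor Mpv17l2 (0.63 ± 0.09) had the largest changes, and the methyltransferase Mrm1 was the one called lower (-0.42 ± 0.10). DESeq2 called 10 higher and 2 lower.

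Of 16 translation factors 4 were called higher and none lower, with all 16 log2 fold changes above 0 (median 0.29), and DESeq2 called 7 higher. The largest called were the elongation factors Gfm1 (0.58 ± 0.12) and Tsfm (0.49 ± 0.07) and the recycling factor Gfm2 (0.43 ± 0.11). Of 20 genes for charging mitochondrial tRNAs 3 were called higher and 1 lower (median 0.07). Qrsl1 (0.65 ± 0.09) and Mars2 (0.56 ± 0.15) rose, whereas Iars2, the isoleucyl-tRNA synthetase, fell from 254, 203 and 257 CPM to 156, 158 and 156 CPM (-0.60 ± 0.10, edgeR adjusted p = 0.016). Of 16 genes of mtDNA transcription and maintenance 5 were called higher, among them Elac2 (0.61 ± 0.13), Tefm (0.52 ± 0.11) and Mgme1 (0.48 ± 0.08), and none lower (median 0.30).

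None of the RNAs that mtDNA itself encodes was called higher by edgeR, beside 9.32% of all tested genes. The rRNA of the small subunit, mt-Rnr1, was at 223, 255 and 491 CPM in wt and 208, 183 and 188 CPM in deficient libraries (-0.74 ± 0.30, edgeR adjusted p = 0.12). That of the large subunit, mt-Rnr2, was at 410, 327 and 784 CPM and at 466, 385 and 360 CPM (-0.33 ± 0.33, edgeR adjusted p = 0.50). Neither was called by edgeR, and DESeq2 called 1 of the 2 lower. Wt replicate 3 was high for both, and poly(A) selection keeps only a part of these RNAs. Of 11 tested mtDNA-encoded mRNAs 1 was called lower (9.09%, beside 9.85% of all tested genes) and none higher (median -0.17). This was mt-Nd4, at 1378, 1384 and 1343 CPM in wt and 1123, 1145 and 1047 CPM in deficient libraries (-0.31 ± 0.08, edgeR adjusted p = 0.034).

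Of the other abundant mtDNA-encoded mRNAs, mt-Co1 (-0.17 ± 0.09), mt-Nd1 (-0.10 ± 0.08), mt-Nd2 (-0.11 ± 0.12), mt-Nd5 (-0.33 ± 0.14) and mt-Cytb (0.01 ± 0.08) did not pass the test. The less abundant mt-Nd6 (-0.57 ± 0.32) did not pass either. Counts of mt-Nd3 (0.09 ± 0.40), mt-Co2 (-0.90 ± 0.34), mt-Co3 (-0.90 ± 0.41) and mt-Atp6 (-0.15 ± 0.39) were at most 1.07 CPM in any library, far below the other transcripts of the same genome, and mt-Nd4l and mt-Atp8 failed the filter. These 6 low values were not read as levels of the transcripts.

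Of the factors that regulate nuclear genes for mitochondria, 2 of 11 tested were called higher, the coactivator Ppargc1b (0.84 ± 0.19) and Atf4 (0.49 ± 0.09), and Mycn was called lower (-1.07 ± 0.22). DESeq2 called 4 of them higher and 1 lower. Over the 11 factors 10 log2 fold changes were positive and 1 negative (median 0.14). Mycn was at 12.3, 17.1 and 17.7 CPM in wt, and Myc, with more reads, at 412, 337 and 470 CPM. In deficient libraries Myc was at 603, 517 and 550 CPM (0.45 ± 0.13) and did not pass the test (edgeR adjusted p = 0.054). Of 9 genes of the mitochondrial unfolded protein response Trib3, at 0.85, 0.78 and 1.31 CPM in wt and 3.56, 4.32 and 3.35 CPM in deficient libraries (1.93 ± 0.28), and the chaperone Hspa9 (0.49 ± 0.12) were called higher, and none was called lower (median 0.38).

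The 2 gene families most like the members are given for comparison. Of 78 tested cytosolic ribosomal proteins 0 were called higher and 0 lower by edgeR (3 and 2 at an unadjusted p under 0.05, and 5 and 1 called by DESeq2), with a median log2 fold change of -0.06, and their summed level overlapped between the groups (55230 to 62330 CPM in wt and 57600 to 60070 CPM in deficient libraries). Of 78 tested nuclear OXPHOS subunits 6 were called higher and 1 lower (median 0.06), and DESeq2 called 15 and 1. The largest changes called were Cox4i2, an isoform of low level (-1.97 ± 0.50), Cyc1 (0.52 ± 0.08) and Uqcrq (0.39 ± 0.07), both subunits of complex III. Whether the members differ from these families was not tested.

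**Figure D4:**
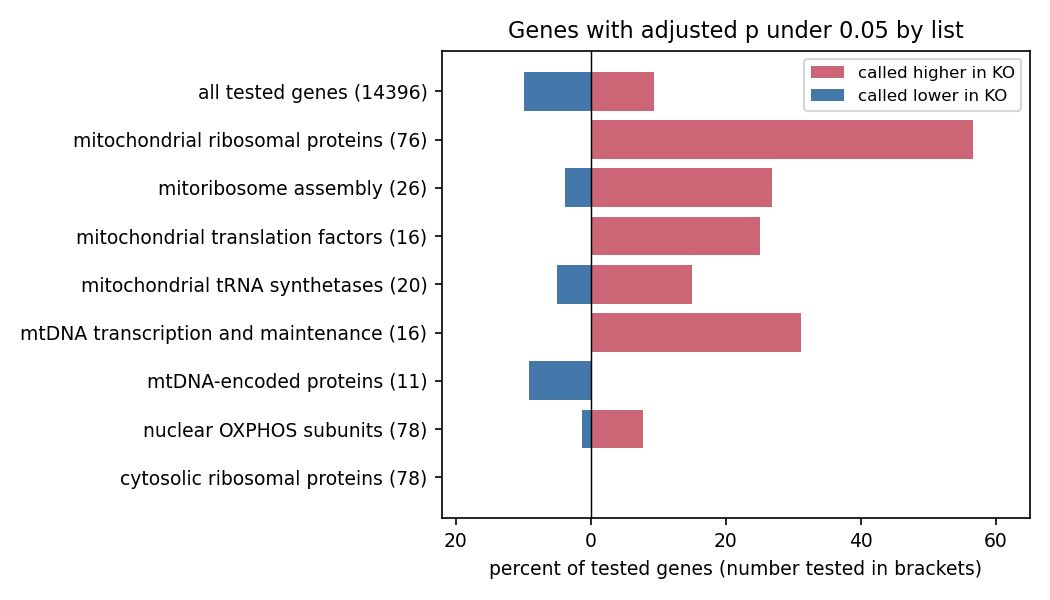
Bars show the percentage of tested genes (horizontal axis) of each list (vertical axis, number tested in brackets) called higher (red, to the right) or lower (blue, to the left) in hnRNP L deficient libraries at an edgeR adjusted p under 0.05. The members reach 56.6% higher and 0% lower, beside 9.32% and 9.85% of all tested genes.

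The share of reads per exon was then compared within each gene, since hnRNP L is a splicing factor. Exon bins, the pieces into which the exons of all transcripts of a gene are cut, were counted in 3 wt and 2 hnRNP L deficient libraries. With a minimum of 10 mean reads per bin, 788 of the 879 bins of the 76 genes were tested. In the exon-level test (edgeR diffSpliceDGE) 0 of these were called at an adjusted p under 0.05, beside 0.0288% of all tested bins, and 0 passed an unadjusted p of 0.01 with a change over 2-fold, beside 0.249%. At an unadjusted p under 0.05 there were 6 (0.761%), beside 1.03% of all bins. Both shares lie well below the level of 0.05 itself. The test was thus strict here, and the 0 called bins do not show that exon use was unchanged. By limma diffSplice 2 member bins were called, bin 1 of Mrpl40 and bin 24 of Mrps5, beside 0.123% of all bins.

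These were also the 2 bins with the smallest p. Of the summed bin counts of its gene, bin 24 of Mrps5 took 7.03%, 7.62% and 6.86% in wt. In hnRNP L deficient libraries it took 4.66% and 4.29% (log2 change in use -0.68, edgeR unadjusted p = 0.0070). Bin 1 of Mrpl40 took 5.09%, 6.47% and 5.74% in wt and 3.31% and 3.37% in deficient libraries (-0.78, edgeR unadjusted p = 0.012). In both, the groups did not overlap. Among bins with at least 1% of the bin counts of their unit, 11.7% of member bins lay lower in this way, beside 8.1% of all tested bins. The next 3 bins held few reads, more of them in deficient libraries. Bin 8 of Mrps35 had 6, 0 and 9 reads in wt and 21 and 27 reads in deficient libraries, bin 5 of Mrps21 had 0, 3 and 15 reads and 17 and 24 reads, and bin 9 of Mrpl30 had 6, 4 and 1 reads and 10 and 31 reads.

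**Figure D5:**
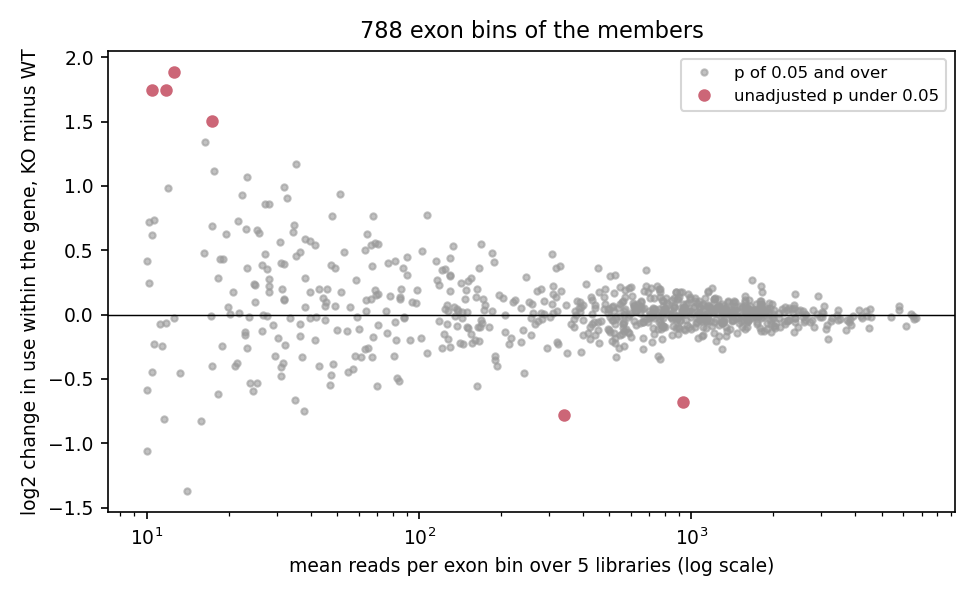
Log2 change in use within the gene, hnRNP L deficient minus WT (vertical axis), against mean reads per bin on a log scale (horizontal axis) for 788 exon bins, in red where the unadjusted p was under 0.05. Of the 6 red points 4 lie above 0 among bins of few reads and 2 below 0 among well counted bins.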

How the data were processed

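Total RNA of sorted cells was made into TruSeq Stranded mRNA libraries and sequenced from both ends. Alignment to GRCm38 (mm10) used TopHat 2.0.10, and the authors deposited raw counts per Ensembl gene (HTSeq) and per exon bin (DEXSeq script). The submitters' notes also name SAMtools and DESeq. The Ensembl release and the strand option are not given in the sources used here. Between 46.66% and 53.33% of the counted reads were assigned to no single gene and were left out. This share was not split by reason, and reads on bases shared by 2 genes can be part of it. Bin counts of 5 libraries were used, and those of hnRNP L deficient replicate 1 are not analysed here.

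Symbols and positions came from GENCODE vM21 (GRCm38), which matched 36345 of 38293 genes. One gene of the name pattern is not reported here. The gene counts entered edgeR 4.0.16 (R 4.3.3) with TMM scaling, the default expression filter (14396 genes kept) and the robust quasi-likelihood test, with Benjamini-Hochberg adjustment over all genes and no covariates. CPM are relative to the TMM-scaled library size, and SE is the log2 fold change divided by the root of F. Exon bins were tested by diffSpliceDGE. Alternatives used DESeq2 1.42.0, limma 3.58.1, other scalings and filters, a block on the first part of the embryo number, and each library left out in turn. The steps were run on simulated data with larger gene changes than those of the members and less spread between replicates than here. That run does not show how well changes of the size reported here are found. The replicates are embryos, and wt and hnRNP L deficient replicate 1 share the first part of their embryo number, as do deficient replicates 2 and 3, with no meaning given. The common biological coefficient of variation over all tested genes was 0.269. Among the members the SE ran from 0.06 for Mrpl28 to 0.17 for Mrps18b, apart from 0.38 for Mrpl53 with its low counts. Small changes of single genes were at the edge of detection, such as 0.25 for Mrpl34, which was called, and 0.23 for Mrps24, which was not.

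Members, lists and tests were chosen with earlier results of these data known. Named genes were the 8 members with the largest called rise, the 5 with a negative fold change, the 3 highest and 3 lowest in wt RPKM, the 5 bins with the smallest p, up to 3 called genes per related list with the largest change, all mtDNA-encoded genes and Hnrnpl. Mrps18a, Mrpl10, Mrpl45, Mrpl3, Mrpl58, Mrps7, Mrps12, Mrps24, Mrps35, Mrps36, Dap3, Myc and the members with an NRF1 motif were added for their roles or after their values were seen.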

Additional observations from a re-analysis of the deposited data

How the results depend on the processing

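The median log2 fold change of the members was positive under every alternative run, from 0.25 to 0.37, and it was 0.25 with total counts only. Between 36 and 56 members were called higher with the other tools, scalings and filters, beside 6.51% to 17.6% of all tested genes. With 1 library left out edgeR called 0 to 53 higher (0.0341% to 15.7% of all genes) and DESeq2, chosen after seeing the data, 35 to 60 (7.57% to 20.2%), the 0 being without wt replicate 3 or any hnRNP L deficient replicate. In those fits few genes of any kind were called. Among the 46 members without overlap of exons, chosen after seeing the data, 26 were called, a smaller set. One member, Mrps14, was called lower with total counts only, where all tested genes were called higher in 7.4% and lower in 12.2%, and by DESeq2 without wt replicate 3 (0 to 1 over the left-out libraries). Without 1 library, 1 to 3 members lay lower without overlap, the 3 without wt replicate 3. Over the related lists 30 genes were called higher and 5 lower, beside 9.32% and 9.85% of all tested genes. DESeq2 called 58 and 8, beside 14.3% and 15.5%. With 1 library left out, edgeR called 0 to 60 and 0 to 8. By limma diffSplice 2 member bins were called. For the named members, 174 of their values under alternatives stayed on the same side of the threshold, 42 lost the call and 4 gained it. No called value changed sign, while the fold changes near 0 of Mrps18c, Mrpl14, Mrps21 and Mrpl53, none of them called, did in some fits. The labels give no replicate numbers. With the first part of the embryo number as a replicate block, chosen after seeing the data, 1 pair carries the difference. The median log2 fold change was then 0.25, and 46 members were called higher and 1 lower. These calls take no account of the spread between wt embryos.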
